A study of Mus musculus with 33 samples.

Results

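The serine and mitochondrial one-carbon genes examined here are 10 genes: Phgdh, Psat1 and Psph of serine synthesis, Shmt1 and Shmt2, the mitochondrial folate enzymes Mthfd2, Mthfd1l and Aldh1l2, the asparagine synthetase gene Asns, and Atf4. They were chosen by name, as the rows of the deposited tables that carry these symbols, out of 27825 genes listed in each tongue table and 25965 in the chondrocyte table. The grouping was made with earlier results of these data in view, because Aldh1l2 and Mthfd1l stand among the 13 genes of smallest p between the genotypes at P20. Genotype differences of the members are therefore given as descriptions. All 10 genes passed the filter on low values (a level of 1 RPM reached by 3 or more of 6 tongue libraries per table, or by 5 or more of the 11 chondrocyte animals) in all 4 tables.

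Cells make serine from the glycolytic intermediate 3-phosphoglycerate in a short chain of steps catalysed by Phgdh, Psat1 and Psph. Serine hydroxymethyltransferase, Shmt1 in the cytosol and Shmt2 in mitochondria, splits serine into glycine and a carbon unit that is carried on folate. In mitochondria that unit is oxidised by Mthfd2, released as formate by Mthfd1l, or oxidised to carbon dioxide by Aldh1l2 with formation of NADPH. Formate returns to the cytosol, where it feeds the synthesis of purines and thymidylate in dividing cells. Atf4 is a transcription factor of the amino acid and stress response, known to act on Phgdh, Psat1, Shmt2, Mthfd2, Aldh1l2 and Asns. Its activity is set largely by how well its mRNA is translated, so the mRNA level alone does not report it.

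RNA was sequenced from whole mouse tongues at embryonic day E13.5, at birth (P0) and at postnatal day 20 (P20), with 3 wild type and 3 biallelic libraries at each stage, and from costal chondrocytes taken at E18.5 from 5 wild type and 6 biallelic animals. Wild type mice (labelled Zac1MOI for tongues and Zac1LMOI for chondrocytes) express the imprinted gene Plagl1, also called Zac1, from 1 allele, and the biallelic mice (Zac1LOM) come from a line called Zac1o knockout and express it from both. The labels name no strain, sex or litter, and nothing in them says that the replicates of a tongue group are separate litters, so p-values measure the spread between these libraries. Tongue RNA was depleted of ribosomal RNA and sequenced from strand-specific libraries, and it was extracted with a different kit at E13.5 (AllPrep) than at P0 and P20 (TRIsure), so that kit and stage cannot be told apart between E13.5 and P0. Chondrocyte libraries were made with SMART-seq2 from polyadenylated RNA of small pools sorted for Cd24a and Cd200. Levels are in RPM, the reads of a gene scaled to the library's total, and are not corrected for gene length, so they are compared between samples and not between genes.

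Read totals ran from 36832717 to 92249098 for tongues, from 7221013 to 15689559 for biallelic chondrocytes and from 2938462 to 7887305 for wild type chondrocytes. A level of 3 reads corresponds to between 0.0325 and 0.0814 RPM in tongue libraries and between 0.191 and 1.02 RPM in chondrocyte libraries, for counting error only. Plagl1 was higher in every biallelic library than in any wild type library of its table, at 203 ± 62.9 against 87.6 ± 19.7 RPM at E13.5, 473 ± 37.8 against 231 ± 10.97 at P0, 64.9 ± 13.2 against 26.2 ± 3.83 at P20 (SD, n = 3 each) and 27.9 ± 11.5 (n = 6) against 8.94 ± 4.63 (n = 5) in chondrocytes. In the sorted cells Col2a1, the collagen gene of cartilage, ranged from 154 to 760 RPM, whereas Ihh, a marker of prehypertrophic chondrocytes, had 0 reads in 9 of the 11 animals. The 7 macrophage markers listed in that table summed to 1423 to 2661 RPM, above the 10 chondrocyte markers at 186 to 897 RPM. Sums over different genes do not measure shares of cells. The name chondrocytes is kept here for the sorted cells, and how much of their RNA came from other cells was not tested. Single libraries stood apart in both data sets. These were biallelic replicate 3 at E13.5, biallelic replicate 3 at P20 and wild type animals 7, 8 and 9 among the chondrocytes, and member results that rest on them are given with and without them.

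Promoters of the members were read from RefSeq (GRCm38.p6, 250 bases before to 50 after the transcript start), where 9 of the 10 genes matched. Aldh1l2 had no window and was not searched. RefSeq has a pair of windows for Psat1, of which the first is shown, and its start lies inside the span that the tables give for the gene. The windows of Asns and Psat1 are shown because these genes followed each other most closely across tongue libraries. Capitals mark the letters TGATGNAA, the composite element bound by Atf4 with C/EBP proteins, searched on both strands.
Asns, chr6:7693160-7693459, minus strand: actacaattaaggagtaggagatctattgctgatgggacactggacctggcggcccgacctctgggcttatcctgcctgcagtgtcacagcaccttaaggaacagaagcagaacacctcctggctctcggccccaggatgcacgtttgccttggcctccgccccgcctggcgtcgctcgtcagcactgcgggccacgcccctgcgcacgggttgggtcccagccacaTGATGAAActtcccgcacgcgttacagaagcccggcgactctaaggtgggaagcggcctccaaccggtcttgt
Psat1, chr19:15925010-15925309, minus strand: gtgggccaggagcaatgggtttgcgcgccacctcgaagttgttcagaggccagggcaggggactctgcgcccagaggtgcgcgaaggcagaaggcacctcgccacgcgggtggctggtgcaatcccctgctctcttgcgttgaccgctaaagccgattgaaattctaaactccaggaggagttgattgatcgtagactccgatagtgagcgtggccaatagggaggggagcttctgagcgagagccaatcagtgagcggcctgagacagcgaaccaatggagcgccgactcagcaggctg
The Asns window holds 1 match, TGATGAAA, which begins 23 bases before the transcript start on the strand of the gene. None of the other members' windows holds the letters, which occur in 3.97% of the 32851 RefSeq windows of 300 bases that were searched. Those windows leave out a chromosome that holds no member. The palindrome GGGGCCCC, known as a binding sequence of Plagl1, is in no member's window and in 1.08% of the windows searched. A match is a description of the letters and says nothing of binding.

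Phgdh (ENSMUSG00000053398, chr3:98313170-98339990), which catalyses the committed step of serine synthesis, fell more from E13.5 to P0 than any other member. In wild type tongues its level was 39.3, 39.1 and 39.1 RPM at E13.5, then 4.66, 4.39 and 4.01 RPM at P0, and 6.63, 6.42 and 7.45 RPM at P20. The 3 stages did not overlap, with P20 between E13.5 and P0. How many of all genes tested separate by stage in this way was not counted, here or for the genes below. The step from E13.5 to P0 was -3.17 ± 0.15 on the log2 scale (difference of group means ± SE, limma, adjusted p = 1.51e-11), and the step from P0 to P20 was a rise of 0.65 ± 0.15 (adjusted p = 0.00216). Biallelic tongues held 44.6, 38.5 and 33.4 RPM at E13.5, 6.37, 5.12 and 4.69 RPM at P0, and 6.36, 5.92 and 4.46 RPM at P20. Their step to P0 was -2.85 ± 0.15 (adjusted p = 4.74e-11), and from P0 to P20 their difference of 0.04 ± 0.15 did not pass (adjusted p = 0.827).

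Psat1 (ENSMUSG00000024640, chr19:15904678-15947337), the aminotransferase of the pathway, fell from E13.5 to P0, with a step of -0.999 ± 0.18 log2 in wild type tongues (adjusted p = 7.47e-05) and of -0.93 ± 0.18 in biallelic ones (adjusted p = 0.000151). Wild type levels of Psat1 spanned 26.8–32.2 RPM at E13.5, 13.1–16.2 RPM at P0 and 11.1–13.4 RPM at P20, so that E13.5 stood apart and the later stages overlapped. Psph (ENSMUSG00000029446, chr5:129765558-129787252), the phosphatase that releases serine, also fell, with a step of -1.17 ± 0.16 in wild type (adjusted p = 4.69e-06) and of -0.78 ± 0.16 in biallelic tongues (adjusted p = 0.000333). Wild type Psph spanned 7.53–7.93 RPM at E13.5, 2.92–3.99 RPM at P0 and 3.43–3.82 RPM at P20, again with E13.5 apart. All 3 genes of serine synthesis were thus higher in the E13.5 tongue than at birth in both genotypes. Of all genes tested, 43.0% in wild type and 40.1% in biallelic tongues were called lower at P0 than at E13.5.

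The cytosolic enzyme Shmt1 (ENSMUSG00000020534, chr11:60788104-60811718) was 28.1, 19.3 and 21.6 RPM in wild type tongues at E13.5, 5.89, 6.71 and 6.48 RPM at P0, and 4.69, 5.05 and 4.72 RPM at P20. These groups did not overlap and ran downward with age, although the wild type step from P0 to P20 did not pass (-0.40 ± 0.19, limma, adjusted p = 0.100). The first step was -1.84 ± 0.19 log2 in wild type (adjusted p = 1.63e-07) and -1.50 ± 0.19 in biallelic tongues (adjusted p = 1.90e-06). The mitochondrial enzyme Shmt2 (ENSMUSG00000025403, chr10:127517123-127522444) was 24.3, 19.9 and 20.2 RPM at E13.5, 9.36, 11.7 and 9.25 RPM at P0, and 10.6, 10.9 and 10.2 RPM at P20 in wild type tongues. The later stages overlapped and E13.5 lay above both. Shmt2 fell from E13.5 to P0, by a step of -1.09 ± 0.25 log2 in wild type (adjusted p = 0.000733) and of -1.57 ± 0.25 in biallelic tongues (adjusted p = 1.98e-05), which was -1.11 without biallelic replicate 3 of E13.5.

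Among the mitochondrial folate enzymes the stage patterns differed from gene to gene. Mthfd2 (ENSMUSG00000005667, chr6:83305691-83317606), a dehydrogenase and cyclohydrolase found mostly in embryonic and dividing cells, was 5.49, 4.23 and 6.49 RPM in wild type tongues at E13.5, 2.81, 1.30 and 2.47 RPM at P0, and 2.01, 1.65 and 1.37 RPM at P20. It fell from E13.5 to P0, by a step of -1.35 ± 0.27 log2 in wild type (adjusted p = 0.000207) and of -0.84 ± 0.27 in biallelic tongues (adjusted p = 0.00896). Mthfd1l (ENSMUSG00000040675, chr10:3973118-4167081), which releases formate, was 13.1, 11.04 and 12.3 RPM at E13.5 and 13.0, 11.7 and 11.7 RPM at P0 in wild type tongues, and these groups overlapped. Its step to P0 was -0.0029 ± 0.23 in wild type (adjusted p = 0.991) and -0.02 ± 0.23 in biallelic tongues (adjusted p = 0.946), with signs that turned under other scalings. At P20 wild type Mthfd1l was 8.16, 9.58 and 7.60 RPM, below every earlier wild type library. The step from P0 to P20 did not pass there (-0.53 ± 0.23, limma, adjusted p = 0.0655).

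Aldh1l2 (ENSMUSG00000020256, chr10:83487450-83534140), the mitochondrial formyl-tetrahydrofolate dehydrogenase, was the member called higher at P0 than at E13.5, in both genotypes. Wild type levels were 1.45, 2.54 and 1.42 RPM at E13.5, 11.5, 10.5 and 14.0 RPM at P0, and 8.90, 7.85 and 9.01 RPM at P20. The 3 stages did not overlap, although the wild type step from P0 to P20 did not pass (-0.47 ± 0.28, limma, adjusted p = 0.184). The rise from E13.5 to P0 was 2.78 ± 0.28 log2 in wild type (adjusted p = 1.18e-07) and 2.27 ± 0.28 in biallelic tongues (adjusted p = 1.40e-06). Aldh1l2 and Mthfd2 therefore moved in opposite directions over the interval in which Mthfd1l showed no difference that passed the test.

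Asns (ENSMUSG00000029752, chr6:7675169-7693254), which makes asparagine from aspartate, was 11.5, 10.9 and 10.6 RPM in wild type tongues at E13.5, 9.06, 7.87 and 7.30 RPM at P0, and 5.80, 5.06 and 6.57 RPM at P20. These groups did not overlap, although neither wild type step passed the test (P0 minus E13.5, -0.45 ± 0.24, adjusted p = 0.0989). In biallelic tongues the same step was -0.56 ± 0.24 (adjusted p = 0.0458), a call that was lost when any of 13 of the 18 libraries was left out, and also with median centring (adjusted p = 0.0641) and with quantile normalization (adjusted p = 0.0920). Without biallelic replicate 3 of E13.5 it was -0.16 (adjusted p = 0.384), and the wild type step then passed (adjusted p = 0.0116). Atf4 itself (ENSMUSG00000042406, chr15:80255184-80257540) spanned 30.4–32.7 RPM at E13.5, 30.3–33.5 RPM at P0 and 33.9–41.0 RPM at P20 in wild type tongues, so that E13.5 and P0 overlapped and P20 lay above both. The wild type Atf4 step from P0 to P20 did not pass (0.24 ± 0.10, limma, adjusted p = 0.0624). The Atf4 step to P0 was 0.02 ± 0.10 in wild type (adjusted p = 0.886) and -0.11 ± 0.10 in biallelic tongues (adjusted p = 0.362). Over that step 6 of the other members fell in both, and 43.0% and 40.1% of all genes tested were called lower. With quantile normalization the biallelic Atf4 step to P0 passed, at -0.31 ± 0.096 (adjusted p = 0.00811).

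**Figure D1:**
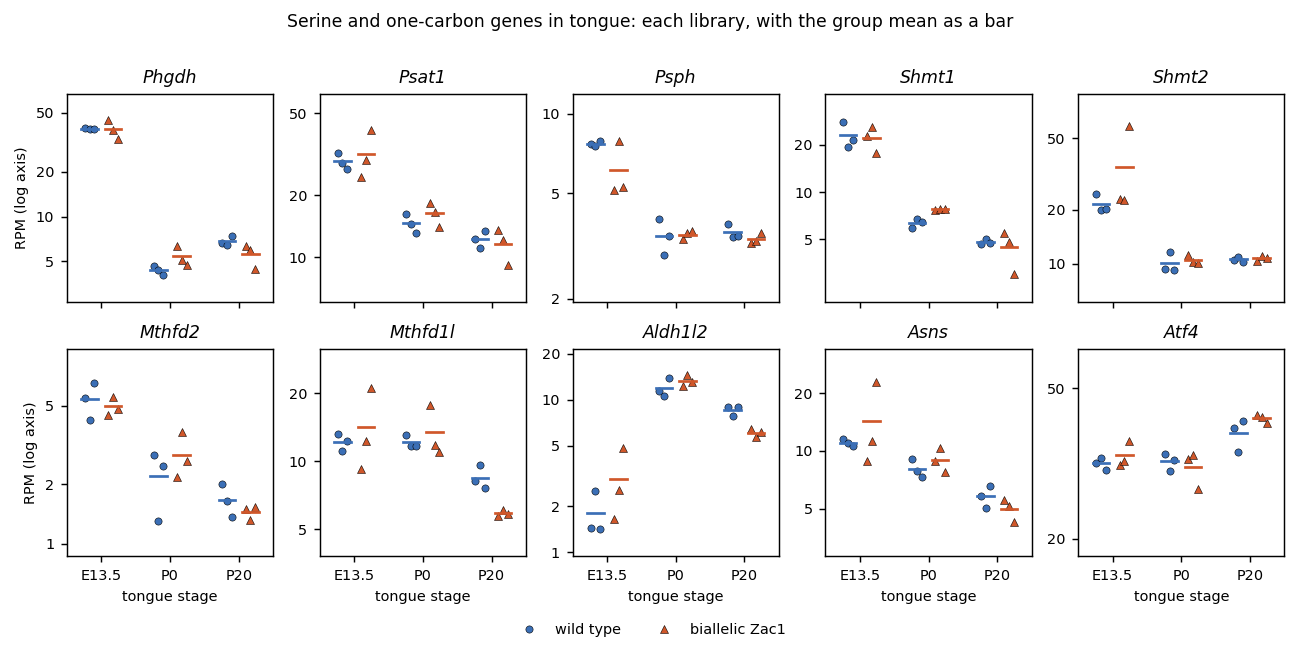
Level of each of the 10 genes in the 18 tongue libraries in RPM on a log axis, by stage and genotype, with points for libraries and bars for group means. Phgdh and Shmt1 drop between E13.5 and P0, Aldh1l2 climbs, and Atf4 stays between 27.0 and 42.4 RPM throughout.

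Counted together, 1 of the 10 members was called higher (adjusted p at or under 0.05) and 6 lower at P0 than at E13.5 in wild type tongues, against 33.4% and 43.0% of the 10929 genes tested. In biallelic tongues 1 was called higher and 7 lower, against 36.2% and 40.1%. The members' median difference was -1.04 log2 in wild type and -0.81 in biallelic tongues, beside -0.17 and -0.07 over all genes tested. With libraries centred on their medians the share of calls in each direction became nearly equal over all genes, at 50.01% higher among the wild type calls in place of 43.7%, and the members' counts were 1 higher and 6 lower in both genotypes. The 6 falls and the rise in wild type passed in each of the 18 fits that left out 1 library. The 10 markers of dividing cells summed to 647 to 898 RPM at E13.5, 110 to 165 RPM at P0 and 45.2 to 107 RPM at P20. Skeletal muscle markers summed to 293 to 656 RPM at E13.5 and 10245 to 14275 RPM at P0, and epithelial markers to 497 to 938 RPM and 2084 to 2997 RPM. The part of these cell types in the members' steps was not tested. In whole tongue, fewer cells of a type and less RNA per cell cannot be told apart.

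From P0 to P20, in wild type tongues 1 member, Phgdh, was called higher and 0 lower by limma, against 32.2% and 13.9% of all genes, and 3 members had an unadjusted p under 0.05. In biallelic tongues Atf4 was called higher, by 0.43 ± 0.10 log2 (adjusted p = 0.00281), and 6 members were called lower, against 30.0% and 17.0% of all genes. These 6 were Mthfd1l (-1.16 ± 0.23), Aldh1l2 (-1.12 ± 0.28), Mthfd2 (-0.93 ± 0.27), Shmt1 (-0.85 ± 0.19), Asns (-0.85 ± 0.24) and Psat1 (-0.50 ± 0.18). Wild type differences for the same 6 were all negative as well, from -0.53 ± 0.23 for Mthfd1l to -0.25 ± 0.18 for Psat1, with adjusted p from 0.0655 to 0.328. Biallelic Mthfd1l was 17.6, 11.8 and 11.04 RPM at P0 and 5.72, 6.06 and 5.87 RPM at P20, and biallelic Aldh1l2 was 12.2, 14.4 and 13.0 RPM and then 6.43, 5.71 and 6.12 RPM. In neither gene did these groups overlap.

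The count for wild type tongues depended on the scaling. RPM is scaled to the library's total, of which listed genes held 32.1% to 33.7% at P0 and 36.7% to 37.6% at P20. The part of this in the steps was not tested. All genes tested had a median step of +0.19 log2 from P0 to P20 in wild type and +0.15 in biallelic tongues, and 69.9% of wild type calls and 63.8% of biallelic calls were higher. With libraries centred on their medians those shares were 50.02% and 50.1%, and 1 member was called higher and 4 lower in wild type. The 4 were Mthfd1l (-0.71), Asns (-0.66), Shmt1 (-0.58) and Psat1 (-0.43). With voom on the recovered reads the count was 1 higher and 5 lower, and without biallelic replicate 3 of E13.5, which enters through the shared estimate of the spread, 4 members passed in place of 1 (Phgdh, Mthfd1l, Asns and Atf4). Leaving out E13.5 biallelic replicate 1, P0 wild type replicate 2, P0 biallelic replicate 1, P20 wild type replicate 2 or P20 biallelic replicate 3 gave 2. The biallelic call of Psat1 was lost without P0 biallelic replicate 1 (adjusted p = 0.114), P0 biallelic replicate 2 (0.0702) or P20 biallelic replicate 3 (0.145), and that of Mthfd2 without P0 biallelic replicate 2 (0.0581). Whether a step differed between the genotypes was tested by the interaction, which passed for 0% of all genes tested by limma and for 0 members between E13.5 and P0 (583 genes and 0 members at an unadjusted p under 0.05) and likewise between P0 and P20 (155 genes and 1 member, Phgdh, -0.61 ± 0.21, adjusted p = 1). With voom the interaction passed for 0 and 1 genes and for 0 members.

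**Figure D2:**
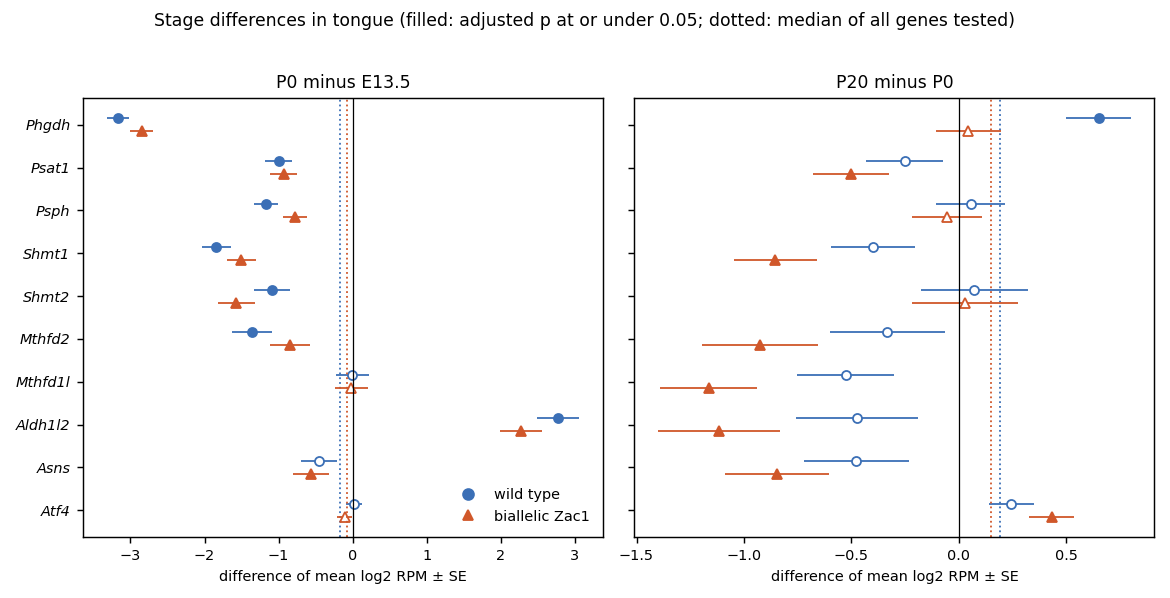
Difference of mean log2 RPM ± SE between successive stages for each gene, in wild type and biallelic tongues, with filled symbols where the adjusted p was at or under 0.05 and dotted lines at the median of all genes tested. Phgdh (-3.17) and Aldh1l2 (+2.78) mark the ends of the range from E13.5 to P0 in wild type tongues. From P0 to P20 the biallelic symbols lie left of the wild type ones for 9 of the 10 genes. Over all genes tested the biallelic step was the higher one for 4093 of 10929.

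Neighbouring pathways are given from 6 gene lists, whose wild type counts from E13.5 to P0 stand beside 43.0% of all genes called lower and 33.4% called higher. Of 6 tested genes of de novo purine synthesis, which consumes formyl groups carried on folate, 6 fell from E13.5 to P0 in wild type tongues and 6 in biallelic ones, with a median of -1.68 and -1.61 log2. Paics fell most, by 2.24 ± 0.14 (adjusted p = 2.73e-10). Of 14 tested folate cycle and folate transport genes 7 fell and 2 rose in wild type, a share of falls near that of all genes. The thymidylate synthase gene Tyms fell by 3.22 ± 0.17 (adjusted p = 4.63e-11). Mtr, which passes a methyl group from folate to homocysteine, rose by 0.60 ± 0.11 (adjusted p = 0.000119). The cytosolic counterpart of the mitochondrial enzymes, Mthfd1, fell by 1.57 ± 0.14 (adjusted p = 2.81e-08).

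Of 13 tested genes of glycine cleavage and of serine or glycine transport and breakdown, 6 fell and 4 rose over the same step in wild type tongues, near the shares of all genes. Gcsh, the lipoyl-carrying protein of the glycine cleavage system, fell by 2.29 ± 0.15 (adjusted p = 3.76e-10), and Sfxn3, of the mitochondrial serine carrier family, rose by 0.82 ± 0.17 (adjusted p = 0.00025). Of 5 tested genes of the methionine cycle, transsulfuration and choline oxidation 3 fell and 1 rose, with Cth, the enzyme that releases cysteine from cystathionine, lowest at -2.85 ± 0.37 (adjusted p = 2.12e-06). Cytosolic aminoacyl-tRNA synthetases fell in 15 of 20 cases and rose in 0. Of 20 other known Atf4 targets and genes of the eIF2alpha stress response 5 fell and 7 rose, from Pck2, the mitochondrial phosphoenolpyruvate carboxykinase, at -1.96 ± 0.16 (adjusted p = 9.64e-09) to Slc7a1, a transporter of cationic amino acids, at +2.68 ± 0.20 (adjusted p = 3.26e-09).

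From P0 to P20 the wild type counts of the lists stand beside 32.2% of all genes called higher and 13.9% lower, or 21.7% in each direction with median centring. Glycine cleavage and transport genes rose in 8 of 13 cases (6 with median centring) and fell in 1. The glycine transporter Slc6a9 had the largest rise of the list at +2.08 ± 0.30 (adjusted p = 4.56e-05), and the 1 fall, of the amino acid transporter Slc38a1, was larger at -2.84 ± 0.13 (adjusted p = 2.26e-10). Folate genes rose in 4 and fell in 5 of 14 cases (2 and 6 with median centring), with Aldh1l1, the cytosolic counterpart of Aldh1l2, highest at +1.67 ± 0.62 (adjusted p = 0.0352). The other Atf4 targets rose in 8 and fell in 3 of 20 cases (7 and 3), with the related factor Atf5 highest at +2.26 ± 0.22 (adjusted p = 8.98e-07). Purine genes rose in 2 and fell in 1 (2 and 2 with median centring), methionine cycle genes rose in 1 and fell in 1 (1 and 1), and synthetases rose in 3 and fell in 0 (2 and 3).

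No gene of the 6 lists was called between the genotypes by limma in any table or in the average over the 3 tongue stages. In chondrocytes all 20 synthetases were lower in the biallelic group, with a median of -0.58 log2, and 11 had an unadjusted p under 0.05, beside 59.2% of all genes lower and 11.7% under 0.05. Without wild type animals 7, 8 and 9 the synthetases had a median of -0.21, 16 of 20 were lower and 0 had an unadjusted p under 0.05 (61.3% and 3.48% of all genes). That fit held only animals 10 and 11 as wild type.

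Between the genotypes 0 of the 10 members passed at E13.5, P0 or P20, in chondrocytes or in the average over the 3 tongue stages, by limma or by voom. Over all genes tested 0%, 0.0160%, 0% and 0% were called in the 4 tables and 0.0366% in the average. At an unadjusted p under 0.05 there were 0 members at E13.5 (386 of 11869 genes), 1 at P0 (412 of 12489 genes), 2 at P20 (286 of 12693 genes), 5 in chondrocytes (1298 of 11127 genes) and 0 in the average (264 of 10929 genes).

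At P0 the differences were positive for 9 of the 10 members and for 7580 of 12489 genes tested, with a median of +0.15 log2 beside +0.04 for all genes. Phgdh was 6.37, 5.12 and 4.69 RPM in biallelic against 4.66, 4.39 and 4.01 RPM in wild type tongues, and Shmt1 was 7.65, 7.77 and 7.84 RPM against 5.89, 6.71 and 6.48 RPM. In both genes every biallelic library lay above every wild type library, a pattern seen in 5.83% of the genes tested. The differences were 0.30 ± 0.15 for Phgdh and 0.29 ± 0.11 for Shmt1 (adjusted p = 0.9998 for each), and that of Phgdh was 0.17 without P0 biallelic replicate 1.

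At P20 the differences were negative for 8 of the 10 members, with a median of -0.18 log2 beside -0.02 for all genes. They were positive for 2 members and for 5670 of 12693 genes tested. Mthfd1l was 5.72, 6.06 and 5.87 RPM in biallelic against 8.16, 9.58 and 7.60 RPM in wild type tongues, and Aldh1l2 was 6.43, 5.71 and 6.12 RPM against 8.90, 7.85 and 9.01 RPM. Phgdh was 6.36, 5.92 and 4.46 RPM against 6.63, 6.42 and 7.45 RPM. For these 3 genes every biallelic library lay below every wild type library, as in 3.74% of the genes tested. The differences were -0.52 ± 0.11 for Mthfd1l, -0.50 ± 0.10 for Aldh1l2 and -0.31 ± 0.15 for Phgdh, and the first 2 ranked 13 and 10 by p among 12693 genes with an adjusted p of 0.99997. Since these ranks were among the results in view when the genes were grouped, they are no support for a difference. In biallelic replicate 3 of P20 endothelial markers summed to 410 RPM against 197 to 237 RPM in the other 5 libraries, and adipocyte markers to 365 RPM against 169 to 209 RPM, and their part was not tested. Without that library the differences were -0.51 for Mthfd1l, -0.50 for Aldh1l2 and -0.15 for Phgdh. Atf4 at P20 was 42.4, 42.0 and 40.4 RPM in biallelic and 39.2, 33.9 and 41.0 RPM in wild type tongues, with overlap. Mthfd1l, Aldh1l2 and Shmt2 lie on the chromosome of Plagl1, at 8.92, 70.4 and 114 megabases from it.

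**Figure D3:**
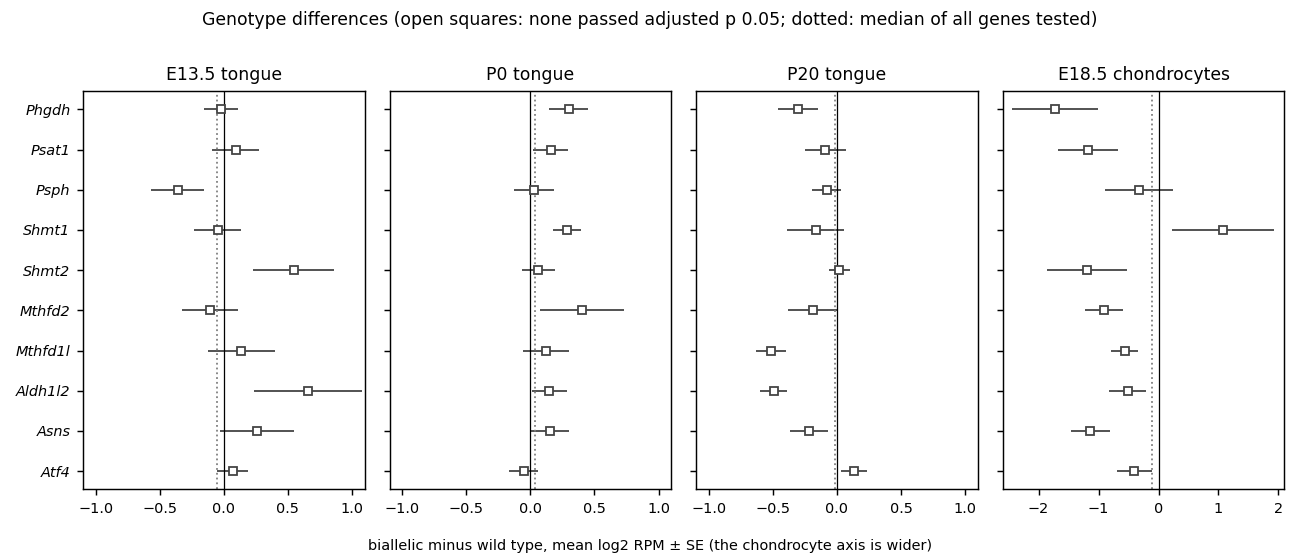
Biallelic minus wild type difference of mean log2 RPM ± SE for each gene in the 4 tables, with a dotted line at the median of all genes tested and a wider axis for the chondrocytes. At P20 the points of Mthfd1l and Aldh1l2 lie near -0.5, and the chondrocyte differences reach from -1.73 for Phgdh to +1.07 for Shmt1.

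At E13.5 the biallelic group was spread widely by its replicate 3. Shmt2 was 22.8, 22.6 and 58.7 RPM in the 3 biallelic libraries and 24.3, 19.9 and 20.2 RPM in wild type, so that replicate 3 stood at 2.67 times the mean of the other 5 libraries. Asns was 8.92, 11.3 and 22.7 RPM in biallelic libraries, Mthfd1l 9.22, 12.3 and 21.0 RPM, and Aldh1l2 1.66, 2.55 and 4.81 RPM. Replicate 3 was the highest of the 6 libraries for 6 of the 10 members (Psat1, Shmt2, Mthfd1l, Aldh1l2, Asns and Atf4) and the lowest for 2, Phgdh and Shmt1. Among all genes tested it was the highest for 3445 and the lowest for 2967 of 11869. Atf4 was 36.2 RPM there and 30.4 to 32.7 RPM in the other 5.

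In the same library 9 hypoxia and glycolysis genes summed to 1425 RPM, against 286 to 331 RPM in the other 5, fibroblast markers to 1857 RPM against 724 to 1170 RPM, and endothelial markers to 120 RPM against 53.3 to 77.4 RPM. Plagl1 was 275 RPM against 157 and 177 RPM in the other biallelic libraries. The part of this library's state in the members' values was not tested. With it the genotype differences at E13.5 were +0.54 ± 0.32 log2 for Shmt2, +0.66 ± 0.42 for Aldh1l2, +0.26 ± 0.29 for Asns and +0.14 ± 0.26 for Mthfd1l. Without it they were +0.09, +0.25, -0.14 and -0.19, and 0 members were called either way.

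In the cells sorted as chondrocytes 9 of the 10 members were lower in the biallelic group, as were 59.2% of all genes. The median was -0.74 log2 beside -0.11 for all genes, and the groups overlapped for every member. Wild type animals 7 to 11 in order held 28.7, 5.18, 49.5, 4.94 and 2.72 RPM of Phgdh, and the 6 biallelic animals 0.917 to 5.35 RPM with a median of 3.80. Psat1 was 40.1, 22.1, 69.8, 7.86 and 12.3 RPM in wild type and 5.89 to 17.7 RPM (median 8.66) in biallelic animals. Shmt2 was 12.4, 16.1, 76.6, 7.61 and 2.72 RPM against 2.80 to 11.1 RPM (median 5.07). For Psat1 and Shmt2 animals 7, 8 and 9 lay above all biallelic animals, for Phgdh animals 7 and 9 did, and animals 10 and 11 lay within the biallelic range or just below it.

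Asns was 45.0, 82.3, 102, 32.2 and 34.4 RPM in wild type and 17.4 to 42.8 RPM (median 22.4) in biallelic animals, and Mthfd2 was 70.9, 53.5, 56.0, 26.6 and 24.2 RPM against 17.0 to 42.4 RPM (median 20.7). Atf4 was 509, 357, 428, 215 and 176 RPM against 179 to 425 RPM (median 213). Mthfd1l was 33.5, 31.2, 37.9, 29.9 and 28.2 RPM against 12.3 to 32.6 RPM (median 22.9). Aldh1l2 ranged from 11.2 to 26.8 RPM in wild type and from 8.89 to 19.9 RPM in biallelic animals, and Psph from 1.28 to 11.7 and from 1.64 to 6.83 RPM. Shmt1, the only member with a positive difference, rested on 1 to 25 reads in the wild type libraries and 9 to 38 in the biallelic ones. The differences were -1.73 ± 0.71 log2 for Phgdh, -1.17 ± 0.50 for Psat1, -1.14 ± 0.32 for Asns, -0.91 ± 0.31 for Mthfd2 and -0.56 ± 0.23 for Mthfd1l, with adjusted p from 0.423 to 0.426.

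Animals 7, 8 and 9 lay at 64.3 to 89.8 on the first principal component of the table (30.6% of the variance), and the other 8 animals at -52.2 to 17.2. For Psat1, Shmt2, Mthfd2 and Asns all of animals 7, 8 and 9 lay above all of the other 8, a pattern held by 10.7% of the genes tested. Of 8 neutrophil markers, all 8 had reads in animals 7, 8 and 9, where they summed to 1098 to 1859 RPM, against 67.5 to 207 RPM in the other 8 animals. S100a8 was 469 to 714 RPM in those 3 and 57.7 to 129 RPM elsewhere, and Mpo was 48.0 to 278 RPM against 0 to 44.0 RPM. The 10 chondrocyte markers summed to 186 to 545 RPM in those 3 animals and 321 to 897 RPM in the other 8. They did not all go the same way. Col2a1 was 154 to 433 RPM in those 3 and 242 to 760 RPM elsewhere, and Sox9 was 8.11 to 17.8 RPM against 2.74 to 7.76 RPM. The highest Acan and Hapln1 levels, 44.3 and 37.8 RPM, were also in those 3. Markers of dividing cells summed to 199 to 335 RPM in animals 7, 8 and 9 and to 87.0 to 265 RPM in the other 8, and fibroblast markers to 449 to 1760 RPM and 128 to 1834 RPM. In both lists the highest of those 8 was biallelic animal 5. The part of other cells in the members' levels was not tested. Repeat libraries exist for 4 animals, all biallelic, so that repeats and genotype cannot be told apart there.

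With animals 7, 8 and 9 left out, the wild type group was animals 10 and 11, beside 6 biallelic animals. Those left out stood apart in these same data and held the highest levels of Psat1, Shmt2, Mthfd2 and Asns. Leaving them out lowers the wild type means of these genes by construction, so the fit is no test of the genotype difference. The members' median difference was then -0.0028 and 5 of 10 were negative (61.3% of all genes). Of the members 0 had an unadjusted p under 0.05 (3.48% of all genes, 11.7% with all animals). Phgdh was then -0.29 ± 0.63, Psat1 +0.04 ± 0.43, Asns -0.47 ± 0.31, Mthfd2 -0.17 ± 0.31 and Mthfd1l -0.43 ± 0.31. With only animals of 1 library each (2 biallelic and 5 wild type), 8 of 10 were negative with a median of -0.32, and 1, Mthfd1l, had an unadjusted p under 0.05. Of all genes 50.8% were negative in that fit and 2.30% had an unadjusted p under 0.05.

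**Figure D4:**
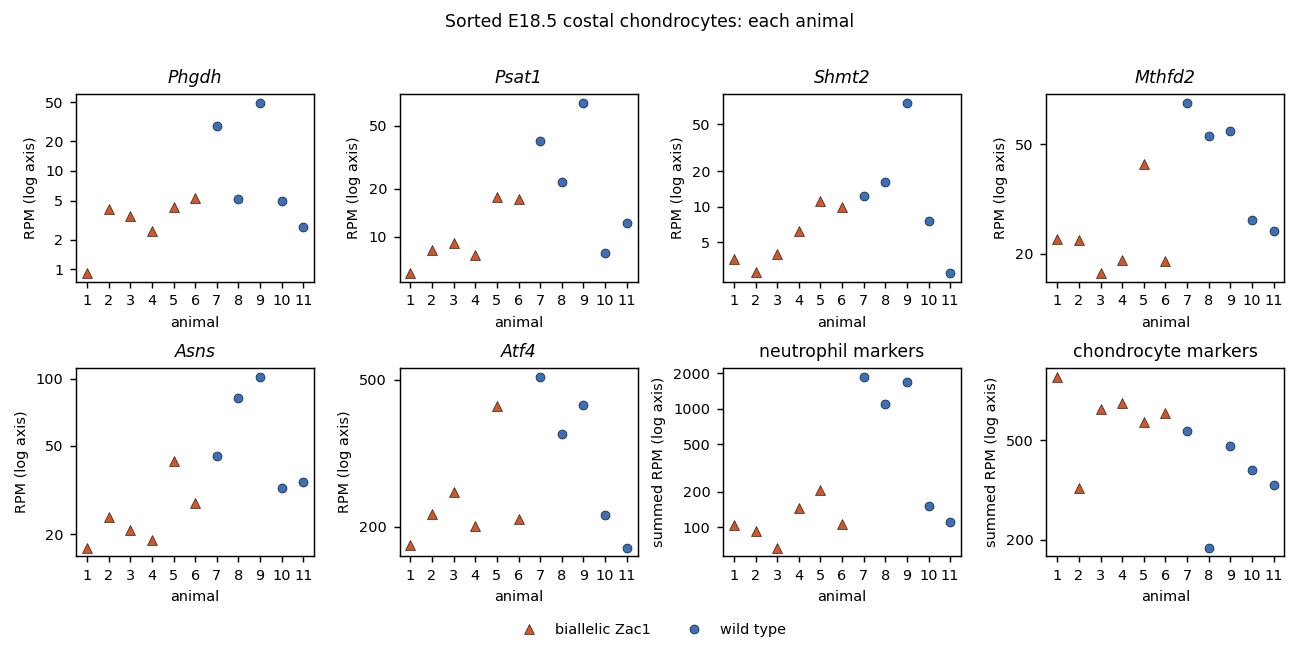
Levels of 6 of the genes in each of the 11 chondrocyte animals in RPM on log axes, beside the summed RPM of the neutrophil and chondrocyte markers. Wild type animals 7, 8 and 9 lie above the other 8 for Psat1, Shmt2, Mthfd2 and Asns and reach 1098 to 1859 summed RPM of neutrophil markers, and wild type animals 10 and 11 lie with the biallelic animals in most panels.

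Within groups the members did not move as a block in tongue. After each group mean was subtracted, the median Pearson r over the 45 pairs of members was 0.07 across the 18 tongue libraries (Spearman 0.08), with 14 pairs above 0.5 and 21 below 0. Psat1 and Asns had the highest r, 0.88, which was 0.86 without biallelic replicate 3 of E13.5. Asns and Atf4 had 0.71 (0.74 without that library), and Shmt2 and Mthfd1l 0.80 (0.36 without it, so that this value rests on that library). Without that library 6 pairs were above 0.5 and the median was 0.17. In chondrocytes the median over pairs was 0.40 across 11 animals (Spearman 0.53), with 21 pairs above 0.5, led by Mthfd2 and Atf4 at 0.92 and Phgdh and Psat1 at 0.87. Psat1 and Asns had 0.81 in chondrocytes. The median was 0.46 (Spearman 0.33) over the 8 animals without 7, 8 and 9, where Psat1 and Asns had 0.86. There Mthfd2 and Atf4 had 0.80 (Spearman 0.38), and Phgdh and Psat1 had 0.63 (Spearman 0.67). With all 11 animals the wild type mean is taken over animals that stood apart and animals that did not, so genes differing between these sets correlate by construction. The libraries share depth and cell composition, and these values are descriptions. Pairs of other genes were not computed, so whether the values are high or low for these libraries cannot be said.

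**Figure D5:**
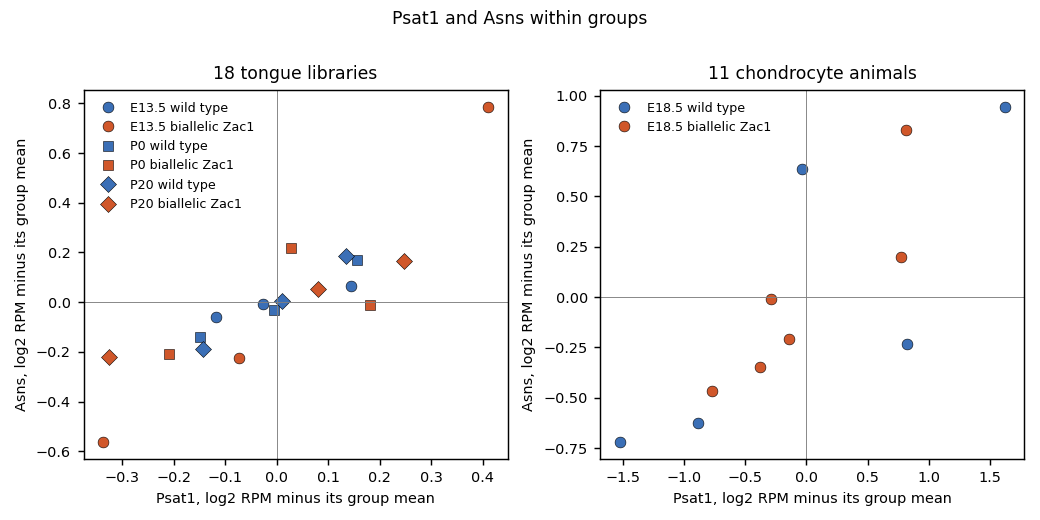
Asns against Psat1 as log2 RPM minus the mean of the library's group, in 18 tongue libraries and 11 chondrocyte animals. Points run from lower left to upper right in both panels (r = 0.88 and 0.81), with biallelic replicate 3 of E13.5 at the upper right of the tongue panel.

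Across the 18 tongue libraries with stage differences included, the nearest to Phgdh in log2 RPM of 10929 genes compared were Fam60a, Ppia and Ormdl1 (Pearson r 0.99 each), and those nearest to Mthfd2 were Trp53, Msto1 and Gpr180 (0.96, 0.96 and 0.95). Those nearest to Aldh1l2 were B4galt1, Col3a1 and Tet2 (0.97 each), and those nearest to Asns were Srp72, Eif3f and Leprel4 (0.95, 0.95 and 0.94). No other member was among the 3 nearest genes of any of the 4.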

How the data were processed

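The authors deposited 4 tables of log2 values, log2 RPM per gene, with 0.9 reads set for 0 reads. Reads were trimmed with Trim Galore 0.4.2 and aligned with TopHat2 2.1.0 (tongues) or HISAT2 (chondrocytes) to GRCm38, per the submitters' processing notes. The counting tool and its strand mode were not given in the sources used here. Undoing the scaling gave whole numbers of reads (within 0.05, for values below 1000 reads) in 100% of cases, and with them each library's read total. Of 33 labelled samples, 4 biallelic chondrocyte animals have 2 libraries each but 1 column, which counted once. Libraries of a group differed by at least 7.70 in chi-square per degree of freedom, so none was a copy of another.

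Differences were fitted with limma 3.58.1 in R 4.3.3 (mean-variance trend, Benjamini-Hochberg adjustment over all genes tested, threshold 0.05): genotype within each table, and stage steps, interactions and the averaged genotype difference in 1 fit of the 18 tongue libraries over genes passing the filter in all 3 tables. The fit was run on simulated reads with known changes, with the same spread for every gene and no library apart. That run does not show how the fit behaves with the libraries that stood apart here. Alternatives were no filter, a filter at 5 RPM, log2(RPM + 1), median centring, quantile normalization, no trend, voom on recovered reads, a replicate block, and each library left out. The pair correlations without single libraries, and the lists with median centring or without animals 7, 8 and 9, were added after seeing the data. The main fits did not pair libraries by replicate number. The correlation of same-numbered deviations ranged from -0.65 to 0.36, and that of different-numbered ones from -0.54 to 0.68. At E13.5 the same-numbered values were all positive (0.04 to 0.16), and the different-numbered ones ran from -0.14 to 0.05. With 3 libraries per group these values cannot settle whether the numbers pair libraries. The members and lists were chosen with earlier results of these data known. Named genes are all 10 members, Plagl1, the 3 nearest genes of 4 members, and, of each list's 3 largest called rises and falls in wild type, mainly the first. Mthfd1 is also one of those 3, and marker genes named in the sorted cells were picked after their values were seen. Promoters came from RefSeq (GRCm38.p6).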

Additional observations from a re-analysis of the deposited data

Results flagged for a closer look

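In the chondrocytes 20 groups of member levels (10 genes in each genotype) were screened for a library far from the rest on the log2 scale, and 2 had one, where chance gives about 1 in 20. Aldh1l2 was 19.9 RPM in biallelic animal 6 and 8.89 to 11.6 RPM in the other 5 biallelic animals. Mthfd2 was 42.4 RPM in biallelic animal 5 and 17.0 to 22.7 RPM in the other 5. In the same animal 5 Atf4 was 425 RPM and Asns 42.8 RPM, the highest of the biallelic group in both genes, and the neutrophil markers summed to 207 RPM against 67.5 to 145 RPM in the other biallelic animals. The fibroblast markers summed to 1834 RPM in animal 5 and to 128 to 276 RPM in the other biallelic animals. Groups of 3 tongue libraries were not screened.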

How the results depend on the processing

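Over single settings, 158 of 182 counts of called genes or members, or medians over member pairs, were classed as unchanged. So were 808 of 845 single differences. Over fits without 1 library 296 of 310 counts and 1507 of 1550 differences were. A count had to stay within 1.5 times its value, and a stage step to keep its direction and its side of the threshold. A genotype difference had only to move by less than the largest replicate SD, and an interaction by less than its SE. A median over pairs had to move by less than the SD over pairs. Genotype differences classed as unchanged could change sign, as that of Asns at E13.5 did, from +0.26 to -0.14 without biallelic replicate 3. Genes called between the genotypes at P0 numbered 1 with no filter, with median centring, with quantile normalization and with voom, and 0 without the trend and with a replicate block. What the replicate numbers share is not stated in the labels. They ranged from 0 to 4 with a library left out (0 without P0 wild type replicate 1 or 2 or P0 biallelic replicate 2 or 3, and 4 without P0 wild type replicate 3). With no filter, genes called from E13.5 to P0 numbered 20373 in wild type and 19861 in biallelic tongues, and 15070 from P0 to P20 in wild type. With the filter at 5 RPM, which tests 5 members and fewer genes, these numbered 5374, 5409 and 3216, with 3197 from P0 to P20 in biallelic tongues. The members called there were 2, 3, 0 and 4, and 2 genes were called in the averaged genotype difference. The interaction between P0 and P20 gave 1 gene at 5 RPM, with median centring and with voom, and 0 to 1 with a library left out. Members called from P0 to P20 in wild type numbered 5 with median centring, 4 with quantile normalization and 6 with voom, and 1 to 4 with a library left out.

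Stage steps that changed sign did not pass in either setting. The Mthfd1l step to P0 in wild type was 0.17, 0.18 and 0.13 with median centring, quantile normalization and voom, and -0.071 to 0.054 with a library left out. In biallelic tongues the Mthfd1l step was 0.048 and 0.032 with the first 2, and -0.28 to 0.31 with a library left out. Atf4 in wild type was -0.083 with quantile normalization, and -0.015 to 0.057 with a library left out. From P0 to P20 the same 3 scalings gave -0.12, -0.081 and -0.13 for Psph and -0.11, -0.089 and -0.11 for Shmt2 in wild type, and -0.087, -0.061 and -0.061 for Phgdh and -0.10, -0.090 and -0.10 for Shmt2 in biallelic tongues. Psph in wild type ranged from -0.060 to 0.16 and Phgdh in biallelic tongues from -0.059 to 0.20 with a library left out. With the replicate block the biallelic calls of Psat1 from P0 to P20 (adjusted p = 0.0526) and of Asns from E13.5 to P0 (adjusted p = 0.0565) were lost, and no other member call was. The cause of these changes was not tested. In chondrocytes, depth limits Shmt1 most, with 1 and 2 reads in wild type animals 7 and 8. Reads were also few in wild type animal 11, with 8 for Phgdh, 8 for Shmt2 and 7 for Psph.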
